A study of Oryzias latipes with 48 samples.

Results

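The genes described here encode nuclear subunits of the last steps of mitochondrial respiration: the cytochrome b-c1 complex (complex III), cytochrome c oxidase (complex IV) and ATP synthase. They were taken from the deposited expression table by their descriptions (cytochrome b-c1 complex, ubiquinol-cytochrome c reductase, cytochrome c oxidase subunit or ATP synthase, leaving out assembly factors) and by a mean of at least 1 FPKM over all libraries, where FPKM is the number of fragments per unit of transcript length and of library size. This gave 45 genes of the 16622 that reached 1 FPKM and of the 26167 in the table: 11 of complex III, 16 of complex IV and 18 of ATP synthase. Subunits described in other words were not matched, and no member is described as cytochrome c1 of complex III. The members nearest the threshold were the cytochrome c oxidase 8B gene LOC101157431 with a mean of 4.26 FPKM and atp5s with 8.96 FPKM. Below the threshold lay 4 further genes, all of complex IV: a 6A gene (LOC101170680) with a mean of 0.590 FPKM, a 7A2 gene (LOC101164577) with 0.584 FPKM, a 6B1-like gene (LOC101163911) with 0.388 FPKM and an NDUFA4-like gene (LOC101164638) with 0.0835 FPKM. All 45 members were above 0 in every library, and none shared its values with another gene. The 13 genes of the mitochondrial genome in the reference gene table matched no ID of the expression table, so the subunits that this genome encodes were not analysed here.

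RNA was sequenced from medaka (Oryzias latipes), a small seasonally breeding fish, in a tissue block of ventral telencephalon, hypothalamus and pituitary. The fish lived outdoors in natural conditions and no group received a treatment. Libraries were made at 4 dates, the equinoxes of spring and autumn and the solstices of summer and winter, and at each date at clock hours 2, 6, 10, 14, 18 and 22 with 2 libraries per hour, which gives 12 libraries per season and 48 in all. The labels name no strain, sex, age, number of fish per library, year or batch for a season. Season and any batch that went with it therefore cannot be told apart. No label says whether each library is a different fish or pool, and the p-values below cover only how much libraries varied, which may be technical.

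In the inner mitochondrial membrane, complex III passes electrons from ubiquinol to cytochrome c, and complex IV passes them from cytochrome c to oxygen. Both add to a proton gradient, which ATP synthase uses to make ATP as its ring of c subunits turns against the catalytic head. Neurons spend much of this ATP on ion pumping and synaptic transmission, so brain tissue carries these transcripts at high levels, and several subunits exist as alternative isoforms encoded by paired genes.

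Library FPKM totals ran from 314605 to 359311, and the depth of each library is unknown. Markers of the labelled tissue were abundant: the synaptic gene snap25 had a mean of 958 FPKM, and the pituitary hormone genes cga and pomc had means of 517 and 363 FPKM. Libraries separated by season, with summer and autumn apart from spring and winter on the first principal component (42.7% of the variance). On the second component (9.78%), all spring scores were positive and all autumn scores negative, while summer scores were mostly positive and winter scores mostly negative. On the same component, 3 spring libraries stood apart from the other 9 (scores of at least 21.1 against at most 13.9): hour 2 library 1, hour 18 library 1 and hour 22 library 2. They did not stand apart from all summer libraries: summer hour 10 library 2 scored 19.6 and summer hour 22 library 1 scored 19.1. These summer libraries were left out only singly. Calls of members that were lost without the 3 spring libraries are named below, with some counts and sizes. Sizes of spring minus autumn differences are given with all spring libraries only.

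The summed level of the 45 genes was highest in autumn and lowest in spring. The sum ran from 2970 to 4039 FPKM in spring (median 3587), from 4134 to 5022 in summer (median 4722), from 4741 to 5494 in autumn (median 5188) and from 3764 to 4621 in winter (median 4209). Spring libraries did not overlap those of summer or autumn, and autumn libraries did not overlap those of winter. As a share of all FPKM in a library, the median was 1.08% in spring, 1.38% in summer, 1.46% in autumn and 1.24% in winter. In bulk tissue a smaller share of cells rich in these transcripts and less of the RNA per cell cannot be told apart.

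The 3 complexes followed the same order of seasons to different degrees. For complex III the median sum was 553 FPKM in spring, 765 in summer, 805 in autumn and 616 in winter. Its summer libraries (727 to 811 FPKM) and autumn libraries (715 to 878 FPKM) all lay above its spring libraries (496 to 655 FPKM) and above its winter libraries (555 to 686 FPKM). For complex IV the medians were 1203, 1578, 1698 and 1413 FPKM in the same order, and for ATP synthase 1830, 2380, 2620 and 2186 FPKM. In these complexes the summer libraries overlapped those of winter: winter reached 1597 FPKM for complex IV and 2381 FPKM for ATP synthase, while the lowest summer libraries were at 1403 and 2001 FPKM.

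**Figure D1:**
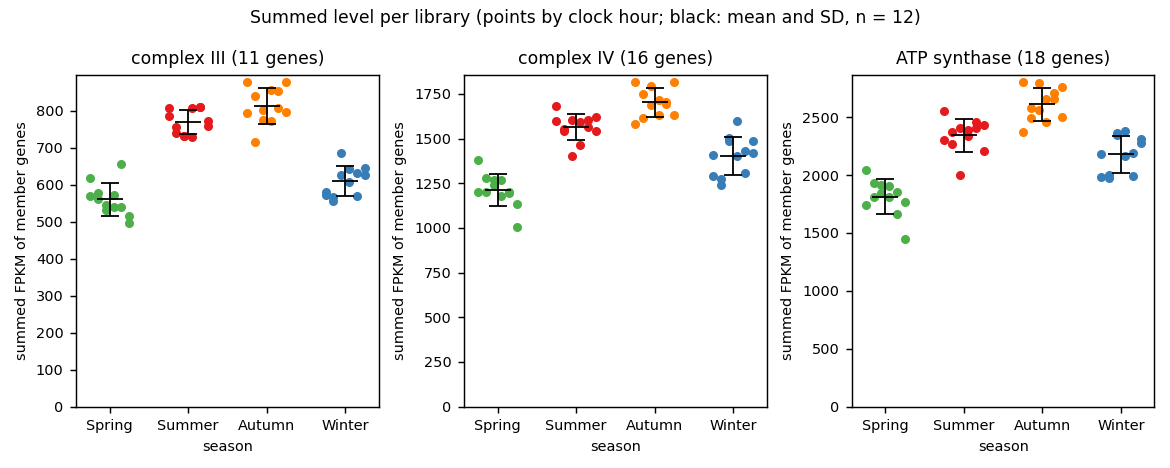
Summed FPKM of the members of each complex (vertical axis, from 0) in every library, by season (horizontal axis); coloured points are libraries placed by clock hour, and black bars are the mean and SD of 12 libraries. In each complex the autumn median is the highest and the spring median the lowest; only for complex III do all summer libraries lie above all winter libraries.

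Differences between seasons were tested on log2(FPKM + 1), where a difference of 1 is a doubling, with limma across all 16622 genes, and a gene was called at a Benjamini-Hochberg adjusted p below 0.05. Spring against autumn held the widest gap. Of the 45 members, 38 were lower in spring (45.1% of all genes) and 2 were higher (27.3% of all genes). The median difference was -0.60 over the members and -0.08 over all genes. The 38 were 9 of the 11 genes of complex III, 13 of the 16 of complex IV and 16 of the 18 of ATP synthase. All autumn libraries lay above all spring libraries for 29 members, against 12.2% of all genes. The 2 members higher in spring were atp5s, the coupling factor B of ATP synthase, and the NDUFA4 gene LOC101155111, whose difference of 0.11 (SE 0.05, adjusted p = 0.0449) lost its call when any of 13 single libraries was left out and without the 3 spring libraries that stood apart. Without those 3 libraries, 39 members were lower in spring and 1 higher.

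Summer against winter, the comparison of the solstices, was more divided. Here 27 members were higher in summer (42% of all genes), 8 were lower (32.9% of all genes) and 10 were not called. The median difference was 0.14 over the members and 0.05 over all genes. Complex III had 8 genes higher and 2 lower, complex IV 9 higher and 2 lower, and ATP synthase 10 higher and 4 lower. Summer libraries all lay above winter libraries for 7 members (13.8% of all genes), and winter libraries all lay above summer libraries for 1 member, LOC101158024 (9.97% of all genes). After scaling libraries by median ratios, 22 members were higher and 10 lower in summer.

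The other season pairs placed autumn above winter and summer, and spring below winter and summer. In autumn 35 members were higher than in winter (42.4% of all genes) and 6 were lower (29.3%), with a median of 0.36 over the members and 0.06 over all genes; autumn libraries all lay above winter libraries for 13 members (11.9% of all genes). Between summer and autumn, 24 members were lower in summer (24.2% of all genes) and 0 were higher by limma (19.4% of all genes), while 1 was higher at an unadjusted p below 0.05. Between spring and winter, 30 members were lower in spring (28.1% of all genes) and 0 were higher by limma (21.3% of all genes), with 2 higher at an unadjusted p below 0.05. Between spring and summer, 34 members were lower in spring (43.9% of all genes) and 3 were higher (29.9%); after quantile normalization these counts were 33 and 8. Summer libraries all lay above spring libraries for 18 members (12.1% of all genes). These comparisons share their libraries and are not independent of each other.

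**Figure D2:**
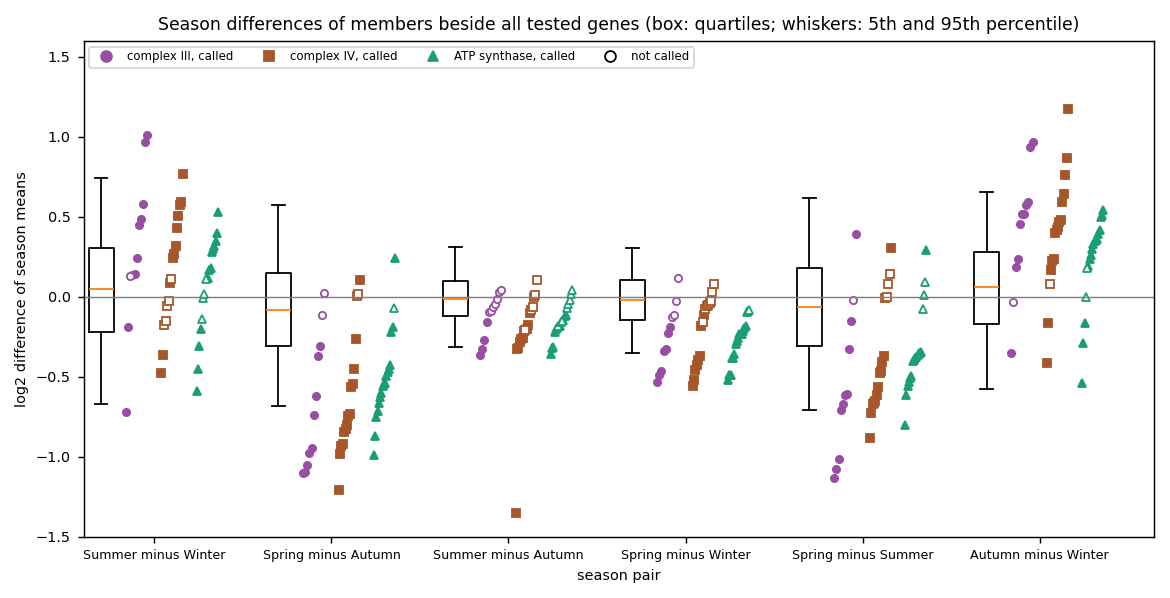
Log2 differences of season means (vertical axis) for the 45 members in 6 season pairs (horizontal axis), by complex, beside a box of all 16622 tested genes; filled symbols are members called at adjusted p below 0.05 and open symbols those not called. In spring minus autumn most members lie below the box median of -0.08, and in summer minus winter they lie on both sides of 0.

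Ordered by season means, 23 members ran autumn, summer, winter, spring from the highest to the lowest, an order that 11.7% of all genes had. Autumn was the highest season for 31 members (26.6% of all genes), winter for 8 (24.6%), summer for 6 (30.5%) and spring for 0 (18.2%). Spring was the lowest season for 35 members (30.9%), summer for 7 (25.6%), winter for 3 (27.3%) and autumn for 0 (16.3%). By the tests, 24 members were lower in spring than in each other season (12.6% of all genes) and 18 were higher in autumn than in each other season (8.42% of all genes). Some of the 18 lost a needed call when single libraries were left out. Autumn minus winter was lost for LOC101168512 (any of 15 libraries) and LOC101154763 (1). Summer minus autumn was lost for atp5mg (any of 11), LOC101167565 (4) and atp5f1d (3). Among the 24, LOC101167565 lost spring minus winter without any of 13 single libraries. Summer and autumn were both above spring and winter for 25 members (28.4% of all genes), and for 10 of these spring and winter were not called apart (16.3% of all genes). Winter was above each other season for 5 members (10.5% of all genes). These patterns were chosen after the values were seen, and the counts describe the members without a test.

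**Figure D3:**
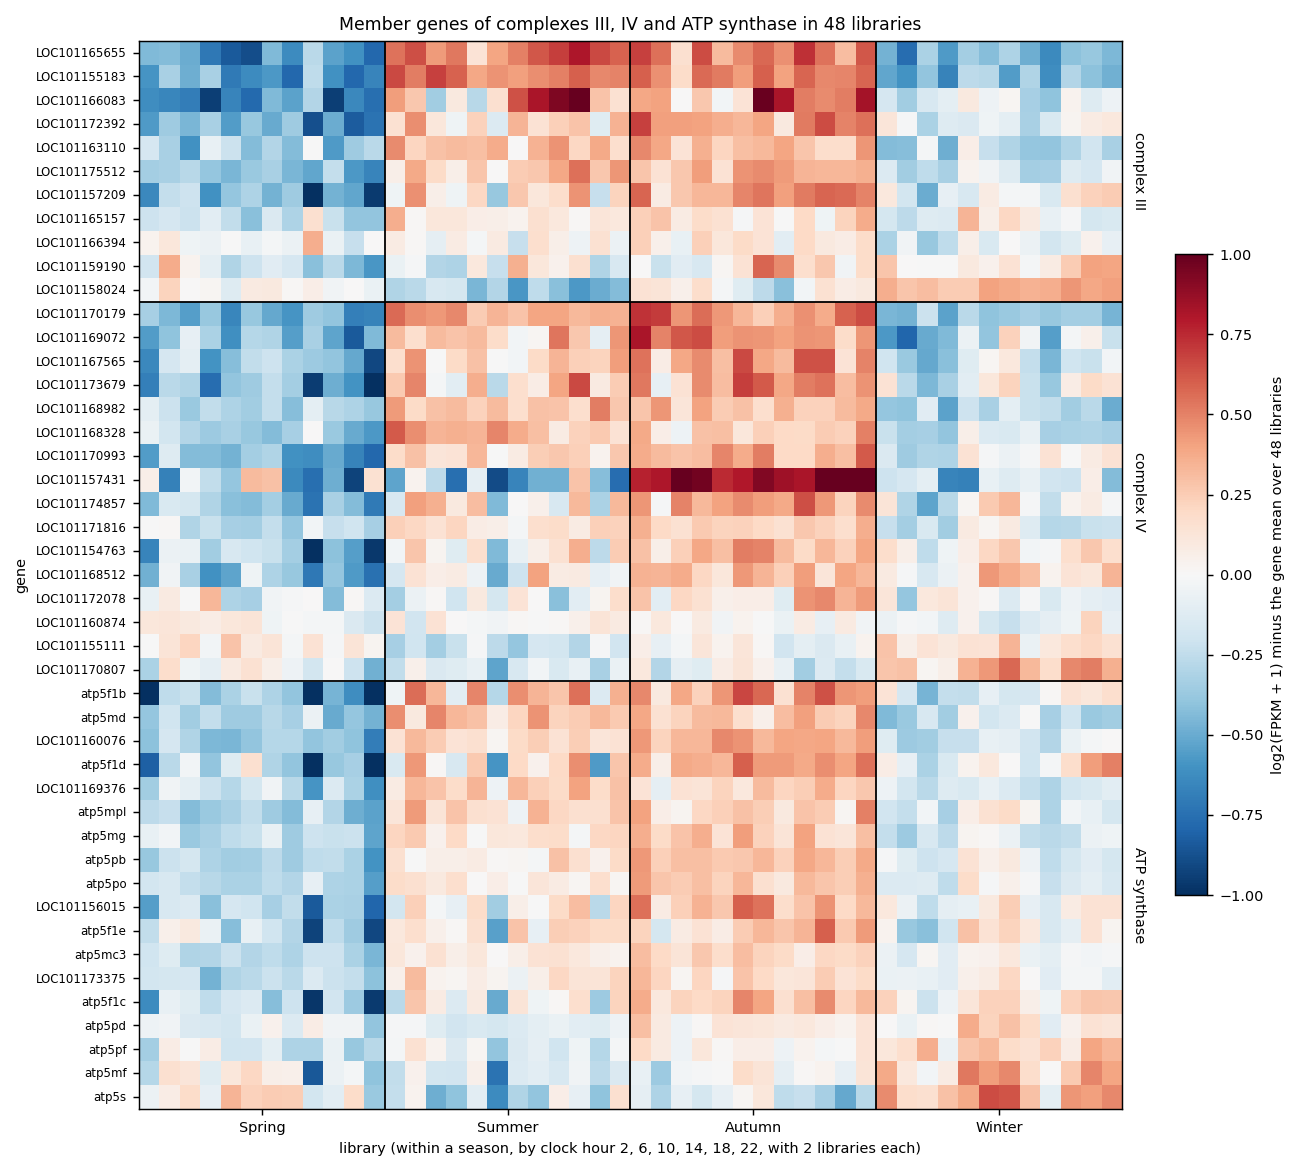
Each member's log2(FPKM + 1) minus its mean over 48 libraries (colour, from -1 to 1), with genes in rows by complex and libraries in columns by season and clock hour. Most rows are red in summer and autumn and blue in spring; LOC101158024, LOC101170807, atp5mf, atp5pf and atp5s are reddest in winter, LOC101157431 is red in autumn, and several rows of ATP synthase and complex IV are darkest in the 3 spring libraries that stood apart.

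In complex III the widest gaps were those of small accessory subunits. Subunit 9 (LOC101165655), which sits beside cytochrome c1, ran from 30.1 to 46.7 FPKM in spring (median 37.7), from 62.0 to 99.8 in summer (median 84.0), from 63.2 to 94.2 in autumn (median 82.9) and from 32.9 to 45.4 in winter (median 41.4). No library of summer or autumn overlapped one of spring or winter. The level was 2.01-fold higher in summer than in winter (log2 difference 1.01, SE 0.06, adjusted p = 1.83e-15) and 2.14-fold lower in spring than in autumn (-1.09, SE 0.06, adjusted p = 4.41e-16). Spring and winter, at -0.13, were not called apart (adjusted p = 0.0624).

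Subunit 6, the acidic hinge protein that binds cytochrome c1, has a major and a minor gene. The major gene LOC101155183 ran from 36.7 to 53.7 FPKM in spring (median 42.0), from 84.1 to 104 in summer (median 91.0), from 73.0 to 97.8 in autumn (median 91.3) and from 39.9 to 53.3 in winter (median 46.9). It showed the same separation of summer and autumn from spring and winter, with a summer minus winter difference of 0.97 (SE 0.05, adjusted p = 6.91e-16). The minor gene LOC101166083 ran from 7.16 to 11.8 FPKM in spring (median 8.94), from 11.3 to 31.7 in summer (median 18.0), from 14.4 to 30.1 in autumn (median 20.3) and from 10.9 to 15.8 in winter (median 13.5). Its spring minus autumn difference was -1.11 (SE 0.07, adjusted p = 6.17e-14), with no overlap between these seasons, and its summer libraries overlapped those of winter. It also had the clearest daily profile of the members, described below.

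Subunit 10 (LOC101163110), another small membrane subunit, went the same way with a summer minus winter difference of 0.58 (SE 0.07, adjusted p = 1.11e-08). It ran from 47.6 to 72.6 FPKM in spring (median 58.6), 72.9 to 102 in summer (median 90.7), 80.2 to 102 in autumn (median 90.8) and 51.8 to 76.3 in winter (median 58.5). Summer and winter overlapped slightly, and autumn stood clear of both spring and winter. Subunit 7 (LOC101165157) had medians of 84.5, 106, 111 and 91.8 FPKM from spring to winter, with ranges of 73.3 to 110, 99.5 to 127, 95.8 to 128 and 81.9 to 125. Every pair of its seasons overlapped, although its spring minus autumn difference of -0.37 was called (SE 0.04, adjusted p = 2.05e-08).

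The most abundant member of complex III moved least. Subunit 8 (LOC101166394), part of the ubiquinone-binding region, ran from 161 to 244 FPKM in spring (median 185), 161 to 213 in summer (median 194), 176 to 224 in autumn (median 207) and 145 to 198 in winter (median 177). Its seasons overlapped throughout, and spring minus autumn was not called (-0.12, SE 0.05, adjusted p = 0.0563). Its summer minus winter difference of 0.14 was called (SE 0.05, adjusted p = 0.0234) but lost its call when any of 5 single libraries was left out. The core protein 1 gene LOC101157209, whose product helps hold the complex together, rose from a median of 23.5 FPKM in spring to 46.7 in autumn (spring minus autumn -0.95, SE 0.09, adjusted p = 1.11e-10) without overlap. Its summer minus winter difference of 0.13 was not called (SE 0.09, adjusted p = 0.185).

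Core protein 2 and the Rieske protein of complex III are each encoded by a pair of genes, and the members of each pair moved apart between the solstices. For core protein 2, LOC101175512 ran from 28.1 to 37.9 FPKM in spring (median 34.3), 44.99 to 66.3 in summer (median 54.3), 49.6 to 62.7 in autumn (median 57.0) and 35.0 to 45.9 in winter (median 40.2). Its partner LOC101158024 ran from 18.6 to 24.1 FPKM in spring (median 20.6), 13.3 to 18.2 in summer (median 15.8), 15.1 to 23.3 in autumn (median 21.4) and 24.6 to 28.2 in winter (median 26.7). The first was higher in summer than in winter (0.45, SE 0.05, adjusted p = 1.21e-09), and the second was lower in summer with no overlap (-0.72, SE 0.04, adjusted p = 6.88e-16).

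The ratio of LOC101175512 to LOC101158024 within a library was 1.595 in spring (1.44 to 1.90, median and range), 3.604 in summer (2.602 to 4.94), 2.61 in autumn (2.202 to 4.01) and 1.47 in winter (1.33 to 1.87). All ratios of summer and autumn were above all ratios of spring and winter. A ratio within a library does not depend on how libraries were scaled, and genes of similar sequence may share reads, so the separate values of each pair are less certain than those of single genes.

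The Rieske protein carries the iron-sulfur cluster that takes electrons from ubiquinol. Its gene LOC101172392 ran from 19.9 to 29.8 FPKM in spring (median 26.2), 34.0 to 52.2 in summer (median 43.0), 40.2 to 60.9 in autumn (median 50.1) and 29.8 to 40.9 in winter (median 35.6). Spring stood below summer and autumn without overlap, and the spring minus autumn difference was -0.98 (SE 0.06, adjusted p = 1.64e-14). The other gene, LOC101159190, ran from 24.8 to 48.8 FPKM in spring (median 32.7), 30.1 to 48.5 in summer (median 36.6), 32.2 to 56.9 in autumn (median 39.9) and 37.2 to 49.99 in winter (median 40), with overlap between all seasons. Summer minus winter was 0.24 for LOC101172392 (SE 0.06, adjusted p = 0.000611) and -0.19 for LOC101159190 (SE 0.05, adjusted p = 0.00212). The ratio of the first to the second had medians of 0.792, 1.14, 1.30 and 0.843 from spring to winter, and its autumn range (0.767 to 1.62) overlapped that of every season.

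**Figure D4:**
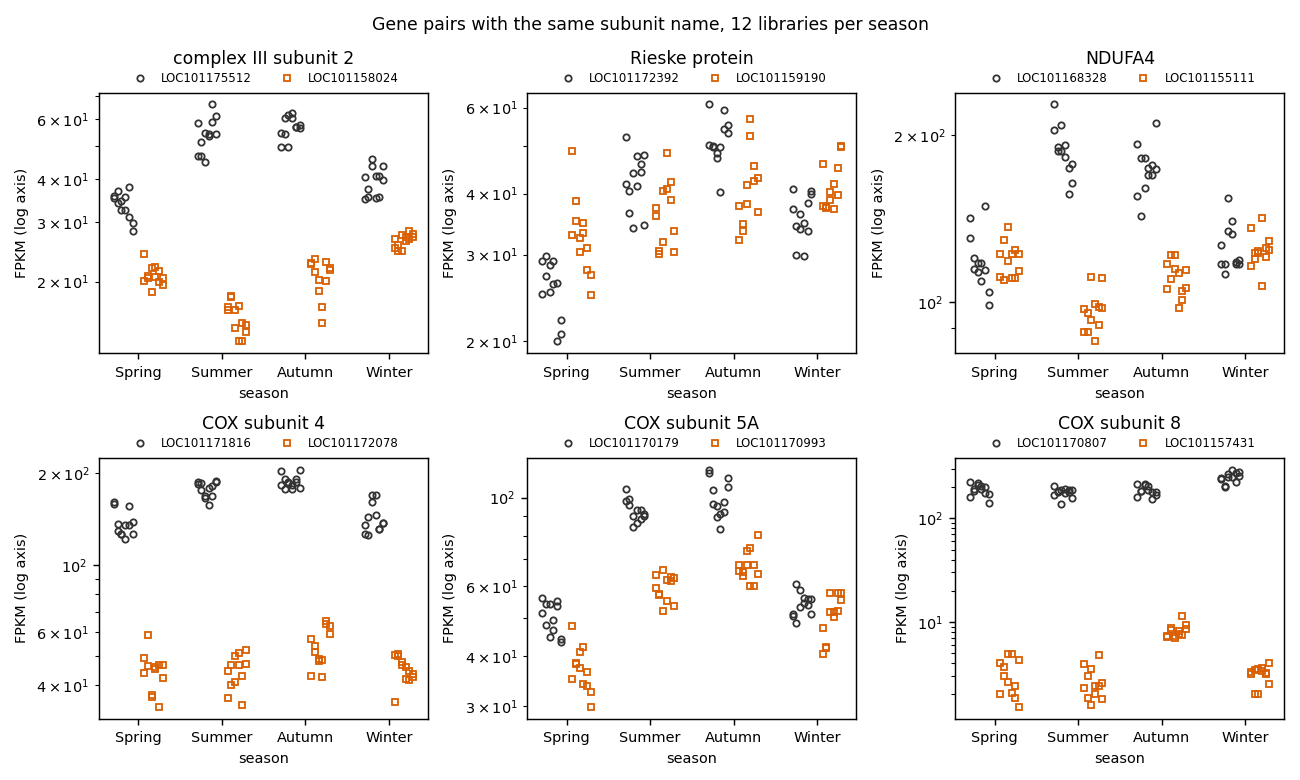
FPKM in every library (vertical axis, log scale) for 6 pairs of genes that share a subunit name, by season (horizontal axis), with 12 libraries per gene and season. The core protein 2 pair spreads apart in summer and autumn, the NDUFA4 pair does so from near equality in spring and winter, and the 8B gene LOC101157431 lies at 6.99 FPKM or above in autumn and at 4.93 or below in the other seasons.

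In complex IV, NDUFA4 was first assigned to complex I and later found to be a subunit of cytochrome c oxidase. Its gene LOC101168328 ran from 98.9 to 149 FPKM in spring (median 116), 157 to 227 in summer (median 187), 143 to 210 in autumn (median 174) and 113 to 154 in winter (median 119). The summer libraries lay above all libraries of spring and winter. The second gene, LOC101155111, ran from 110 to 136 FPKM in spring (median 120), 85.1 to 111 in summer (median 96.5), 97.7 to 122 in autumn (median 112) and 107 to 142 in winter (median 123), with overlap between all seasons. Summer minus winter was 0.57 for LOC101168328 (SE 0.05, adjusted p = 6.67e-12) and -0.36 for LOC101155111 (SE 0.05, adjusted p = 8.17e-08). The ratio of the first to the second was 0.992 in spring (0.854 to 1.27), 1.95 in summer (1.597 to 2.57), 1.601 in autumn (1.30 to 1.83) and 0.949 in winter (0.926 to 1.31).

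Subunit 5A, a matrix-facing subunit, gave the widest solstice difference of complex IV. Its gene LOC101170179 ran from 43.5 to 55.9 FPKM in spring (median 50.3), 84.3 to 105 in summer (median 92.0), 83.4 to 117 in autumn (median 96.8) and 48.5 to 60.8 in winter (median 54.1). No library of summer or autumn overlapped one of spring or winter; the level was 1.70-fold higher in summer than in winter (0.77, SE 0.04, adjusted p = 2.32e-17) and 1.98-fold lower in spring than in autumn (-0.98, SE 0.04, adjusted p = 1.59e-19). The second 5A gene, LOC101170993, moved less between the solstices (0.24, SE 0.05, adjusted p = 0.000176), with medians of 37.0, 60.7, 66.5 and 51.7 FPKM from spring to winter. The ratio of the pair had medians of 1.36, 1.55, 1.51 and 1.08, with ranges that overlapped.

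The 5B subunit binds zinc on the matrix side. Its gene LOC101173679 ran from 30.9 to 52.9 FPKM in spring (median 45.9), 51.7 to 99.5 in summer (median 72.5), 58.9 to 102 in autumn (median 86.2) and 45.4 to 73.2 in winter (median 62.0). Spring and autumn did not overlap (-0.94, SE 0.09, adjusted p = 3.36e-10), while summer and winter did. The second 5B gene LOC101174857 was also lower in spring than in autumn (-0.80, SE 0.09, adjusted p = 1.11e-08), and its summer minus winter difference of 0.11 was not called (adjusted p = 0.295). The ratio of the 5B genes had medians of 1.56, 1.88, 1.78 and 1.71 from spring to winter, with overlapping ranges.

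Subunit 6B1, which faces the intermembrane space, also has a major and a minor gene, and both fell from autumn to winter. The major gene LOC101168982 ran from 116 to 145 FPKM in spring (median 127), 174 to 222 in summer (median 190), 169 to 211 in autumn (median 190) and 107 to 145 in winter (median 126). Its summer and autumn libraries stood clear of those of spring and winter, with a summer minus winter difference of 0.59 (SE 0.05, adjusted p = 4.09e-12). The minor gene LOC101169072 ran from 12.5 to 21.8 FPKM in spring (median 17.1), 21.7 to 34.0 in summer (median 28.3), 26.5 to 41.6 in autumn (median 31.9) and 12.9 to 27.4 in winter (median 18.5). Its spring minus autumn difference was -0.92 (SE 0.07, adjusted p = 3.01e-12), and its autumn and winter libraries overlapped slightly.

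Subunit 4 has isoform 1, the common form, and isoform 2, which in mammals is linked to low oxygen. Isoform 1 (LOC101171816) ran from 122 to 161 FPKM in spring (median 135), 158 to 189 in summer (median 180), 177 to 206 in autumn (median 187) and 125 to 170 in winter (median 137). Its summer minus winter difference was 0.32 (SE 0.03, adjusted p = 1.91e-09), and its autumn libraries stood clear of winter. Isoform 2 (LOC101172078) had medians of 45.7, 45.6, 52.8 and 45.4 FPKM and overlapped in all seasons. It was higher in autumn than in spring (spring minus autumn -0.27, SE 0.06, adjusted p = 0.000321), in summer (summer minus autumn -0.26, adjusted p = 0.00102) and in winter (0.24, adjusted p = 0.00111), and its summer minus winter difference of -0.03 was not called (SE 0.06, adjusted p = 0.71). The ratio of isoform 1 to isoform 2 had season medians between 3.12 and 3.96, with overlapping ranges.

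Subunit 8, a single-span membrane subunit, showed the most unequal pair. The 8A gene LOC101170807 was the most abundant member of complex IV and ran from 142 to 225 FPKM in spring (median 192), 137 to 205 in summer (median 181), 156 to 217 in autumn (median 184) and 201 to 296 in winter (median 251). Winter was higher than summer (summer minus winter -0.48, SE 0.06, adjusted p = 5.48e-08), with a small overlap, and spring minus autumn was not called (0.02, SE 0.06, adjusted p = 0.806). The 8B gene LOC101157431, the least abundant member of all, ran from 1.51 to 4.93 FPKM in spring (median 2.83), 1.56 to 4.81 in summer (median 2.42), 6.99 to 11.5 in autumn (median 7.82) and 1.99 to 4.00 in winter (median 3.21). Every autumn library lay above every other library, while the other seasons overlapped each other.

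The autumn level of LOC101157431 was 2.32-fold above spring (spring minus autumn -1.21, SE 0.14, adjusted p = 1.09e-08), 2.55-fold above summer (summer minus autumn -1.35, SE 0.14, adjusted p = 1.94e-08) and 2.25-fold above winter (1.17, SE 0.14, adjusted p = 2.1e-08), as folds of FPKM + 1. The other season pairs were not called, with differences of -0.18 for summer minus winter, -0.04 for spring minus winter and 0.14 for spring minus summer. The ratio of 8A to 8B fell to 22.0 in autumn (15.7 to 30.0), against medians of 70.4 in spring, 73.3 in summer and 76.8 in winter, and no other season had a ratio below 32.9. In mammals such as the mouse, 8B is known from heart and skeletal muscle.

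Muscle markers were therefore read beside LOC101157431. Of 20 skeletal muscle markers, 16 had a mean below 1 FPKM, among them acta1 (0.755 FPKM) and most fast myosin heavy chains, which lay as low as 0.0081 FPKM. The summed level of all 20 markers, of which 4 were tested, ran from 15.7 to 22.3 FPKM in spring and 27.8 to 40.4 in summer. It ran from 24.1 to 39.7 FPKM in autumn and 16.4 to 28.6 in winter, so autumn overlapped summer and winter. The myoglobin gene mb had means of 6.55, 20.5, 17.8 and 9.14 FPKM from spring to winter. actn3, a muscle actinin, was highest in autumn with 2.65 FPKM against 0.916 in spring, 0.989 in summer and 0.576 in winter (spring minus autumn -0.89, SE 0.06, adjusted p = 1.6e-13). The other tested markers were not highest in autumn. The fast myosin gene LOC101158198 had means of 0.603, 1.96, 1.07 and 0.36 FPKM from spring to winter. For the ryanodine receptor gene ryr1 the means were 7.95, 7.78, 7.47 and 8.16 FPKM. Their part in the 8B result was not tested.

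The remaining genes of complex IV were mostly lowest in spring. Subunit 7B (LOC101167565) was lower in spring than in autumn by -0.83 (SE 0.07, adjusted p = 6.65e-11), and subunit 6C-1 (LOC101154763) by -0.74 (SE 0.09, adjusted p = 1.49e-08). The 7A2 gene LOC101168512 was lower in spring than in autumn by -0.73 (SE 0.07, adjusted p = 1.01e-09), without overlap. The 7A-related gene LOC101160874, whose mammalian counterpart helps join complexes into supercomplexes, stayed at season means of 59.5 to 63.2 FPKM and differed by 0.00 between spring and autumn (SE 0.04, adjusted p = 0.961). Its 1 call, summer minus winter at 0.09 (adjusted p = 0.0293), was lost when any of 6 single libraries was left out. The ratio of 7A2 over 7A-related was 0.772 in spring, 1.001 in summer, 1.30 in autumn and 1.14 in winter, with autumn ratios (1.13 to 1.38) all above spring ratios (0.638 to 0.929).

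In the catalytic head of ATP synthase, the beta subunit gene atp5f1b, which carries the catalytic sites, ran from 55.0 to 129 FPKM in spring (median 113), 124 to 223 in summer (median 191), 162 to 240 in autumn (median 205) and 109 to 170 in winter (median 138). Spring and autumn did not overlap, and atp5f1b was 1.99-fold lower in spring than in autumn (-0.99, SE 0.11, adjusted p = 5.51e-09). Its 3 lowest spring libraries, at 55.0, 67.9 and 72.4 FPKM, were those that stood apart on the second component, and the other 9 lay at 97.8 FPKM or above. The delta subunit gene atp5f1d, part of the central stalk, ran from 13.5 to 55.0 FPKM in spring (median 38.3), 32.3 to 68.3 in summer (median 53.7), 51.4 to 74.98 in autumn (median 64.7) and 39.5 to 70.4 in winter (median 49.95). The same 3 spring libraries were its lowest, at 13.5, 23.7 and 27.5 FPKM. In the other seasons atp5f1b and atp5f1d also shared their lowest library: summer hour 10 library 2, autumn hour 2 library 2 and winter hour 6 library 1. These were also the lowest libraries of other members, among them LOC101157209 of complex III and LOC101154763, LOC101173679 and LOC101174857 of complex IV. In ATP synthase they were also the lowest of atp5f1c and LOC101156015. Other members, such as LOC101155183, had other lowest libraries, so members did not all vary independently of each other. The epsilon subunit gene atp5f1e, also of the central stalk, ran from 50.1 to 103 FPKM in spring (median 80.7), 65.8 to 117 in summer (median 108), 85.0 to 146 in autumn (median 115) and 71.7 to 118 in winter (median 98.2), with overlap between all seasons.

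Those libraries changed the size of several spring differences of the head and stalk. Without them, spring minus winter moved from -0.49 to -0.30 for atp5f1b, from -0.52 to -0.30 for atp5f1d and from -0.36 to -0.22 for atp5mf, all still called. For the epsilon subunit atp5f1e it moved from -0.28 to -0.15 and lost its call. Spring minus summer moved from -0.51 to -0.29 for atp5f1d and from -0.35 to -0.19 for the gamma subunit atp5f1c, both still called. In complexes III and IV, LOC101167565 lost its call for spring minus winter (-0.19 to -0.12) and LOC101159190 for spring minus summer (-0.15 to -0.08). What set these libraries apart was not tested.

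The alpha subunit, the non-catalytic partner of beta, has a major gene and a minor gene that both rose in summer and autumn. The major gene LOC101160076 ran from 94.9 to 136 FPKM in spring (median 117), 155 to 193 in summer (median 171), 179 to 214 in autumn (median 201) and 119 to 154 in winter (median 138). Its summer and autumn libraries lay above all spring and winter libraries, with a summer minus winter difference of 0.35 (SE 0.04, adjusted p = 9.32e-09) and a spring minus autumn difference of -0.76 (SE 0.04, adjusted p = 8.94e-16). The minor gene LOC101169376 differed by 0.40 (SE 0.05, adjusted p = 1.75e-07) and -0.45 (SE 0.05, adjusted p = 2.51e-08) in the same comparisons. The ratio of major to minor had medians of 2.36, 2.53, 2.98 and 2.65 from spring to winter.

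The c subunits form the rotating ring in the membrane. The gene atp5mc3 was the most abundant member of ATP synthase and ran from 158 to 200 FPKM in spring (median 180), 218 to 242 in summer (median 231), 229 to 270 in autumn (median 251) and 194 to 234 in winter (median 215). Spring stood below summer and autumn without overlap, and spring minus autumn was -0.47 (SE 0.03, adjusted p = 1.98e-14). The second C3 gene LOC101156015 ran from 71.0 to 116 FPKM in spring (median 102), 100 to 158 in summer (median 130), 135 to 194 in autumn (median 158) and 107 to 152 in winter (median 129). Its spring minus autumn difference was -0.71 (SE 0.08, adjusted p = 1.12e-08), and summer and winter, at 0.01, were not called apart (SE 0.08, adjusted p = 0.882). The C2 gene LOC101173375 was lower in spring than in autumn by -0.43 (SE 0.04, adjusted p = 1.45e-10), and its ratio to atp5mc3 barely moved: atp5mc3 over LOC101173375 had season medians of 3.08, 3.15, 3.21 and 3.14.

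The peripheral stalk holds the head still against the turning ring. As deposited, its subunits were all called lower in spring than in autumn, but they divided between the solstices. The gene atp5po, for the OSCP subunit at its top, ran from 131 to 181 FPKM in spring (median 157), 191 to 218 in summer (median 204), 206 to 258 in autumn (median 233) and 161 to 218 in winter (median 175). It was lower in spring than in autumn without overlap (-0.55, SE 0.03, adjusted p = 9.17e-15) and higher in summer than in winter (0.18, SE 0.03, adjusted p = 1.3e-05). Subunit b (atp5pb) likewise differed by -0.63 between spring and autumn (SE 0.03, adjusted p = 1.71e-15). Subunit F6 (atp5pf) was lower in summer than in winter (-0.31, SE 0.05, adjusted p = 1.05e-05), and so was subunit d (atp5pd; -0.21, SE 0.03, adjusted p = 3.77e-06). The spring minus autumn difference of atp5pd, -0.19 as deposited (SE 0.03, adjusted p = 1.32e-05), became 0.00 after quantile normalization. That of atp5pf lost its call there, at -0.08.

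Small membrane subunits of ATP synthase also divided. The gene atp5mg, for subunit g at the interface between paired enzymes, ran from 116 to 164 FPKM in spring (median 143), 165 to 201 in summer (median 189), 182 to 224 in autumn (median 200) and 130 to 171 in winter (median 146). Autumn stood clear of spring and winter, and summer minus winter was 0.30 (SE 0.04, adjusted p = 4.56e-07). atp5md, for the DAPIT subunit, differed more between the solstices (0.53, SE 0.05, adjusted p = 7.75e-10), without overlap, and atp5mpl, for the 6.8PL subunit, less (0.28, SE 0.06, adjusted p = 7.17e-05). Subunit f (atp5mf) went the other way, at -0.45 (SE 0.08, adjusted p = 2.1e-05), with season means of 136, 126, 141 and 173 FPKM from spring to winter. Factor B (atp5s) was lower in summer than in winter by -0.59 (SE 0.08, adjusted p = 1.14e-07), with means of 9.24, 7.40, 7.62 and 11.6 FPKM.

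Of the 45 members, 5 were higher in winter than in every other season, a share near the 10.5% of all genes. They were atp5mf, atp5pf and atp5s of ATP synthase, the 8A gene LOC101170807 of complex IV and the core protein 2 gene LOC101158024 of complex III. For 10 of the 45, summer and autumn were above both other seasons, with spring and winter not called apart (16.3% of all genes). These were LOC101155183, LOC101163110 and LOC101165655 of complex III, LOC101168328, LOC101168982, LOC101169072 and LOC101171816 of complex IV, and LOC101169376, atp5md and atp5mg of ATP synthase. The 45 members lay on 21 chromosomes in the gene table, and none was within 3 genes of another.

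Other genes of the pathway were counted in the same test. Among all genes, 45.1% were lower and 27.3% higher in spring than in autumn. Between the solstices, 42% of all genes were higher and 32.9% lower in summer. Of 39 subunits of complex I, which feeds electrons from NADH, 36 fell below autumn in spring and 0 were higher by limma; between the solstices 14 were higher in summer and 5 lower. Both cytochrome c genes, for the carrier between complexes III and IV, were lower in spring than in autumn. The main one, LOC101171965, had means of 58.6 and 124 FPKM (-1.08, SE 0.04, adjusted p = 2.4e-18). Complex II, which takes electrons from succinate, had 3 of 5 genes lower in spring and 1 higher, and its pair of iron-sulfur genes went opposite ways between the solstices: LOC101170091 was higher in summer (1.23, with means of 23.1 and 7.51 FPKM) and LOC101171309 lower (-0.63, with means of 58.7 and 90.1 FPKM). Of 14 genes of the citrate cycle and of pyruvate dehydrogenase (pdhb and dlat), spring was below autumn for 12 and above it for 1. Among the same 14, summer was above winter for 8 and below it for 3.

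Genes that serve the complexes without being part of them had other counts between the solstices. Of 21 assembly factors, 12 were lower in summer than in winter and 5 higher, and the copper chaperone of cytochrome c oxidase, LOC101170379, was lower in summer as well (-0.58, SE 0.06, adjusted p = 3.41e-09). Of 10 regulators of mitochondrial biogenesis, 7 were lower in summer and 0 higher by limma. Among these were the coactivator pprc1 (-0.89), the mitochondrial DNA packaging factor tfam (-0.74), nrf1 (-0.50) and ppargc1a (-0.13). Against autumn, the regulators esrrb, gabpb2 and polrmt were lower in spring, tfb1m and tfb2m were higher, and the rest were not called. The carriers that exchange ADP, ATP and phosphate across the inner membrane had 1 of 3 genes higher and 1 lower in summer. The vacuolar ATPase, a related proton pump of other membranes, had 10 of 15 genes higher and 3 lower in summer, and 12 lower and 1 higher in spring than in autumn.

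Marker lists of cell types had their own counts between the same seasons, to be read beside the shares of all genes. For summer against winter these shares were 42% (higher) and 32.9% (lower). For spring against autumn they were 27.3% (higher) and 45.1% (lower). Of 15 neuron markers, 14 were higher in summer than in winter and 12 lower in spring than in autumn, with summed levels of 1797 to 2133 FPKM in spring, 2235 to 2748 in summer, 2229 to 2462 in autumn and 1810 to 2117 in winter. Of 11 tested myelin markers, 8 were higher in summer than in winter and 9 lower in spring than in autumn. Sums over all 12 listed were 204 to 260, 332 to 464, 422 to 594 and 176 to 235 FPKM. Of 7 tested red blood cell markers, 5 were higher in summer than in winter and 5 lower and 2 higher in spring than in autumn. Sums over all 14 listed were 217 to 524, 944 to 2410, 920 to 1772 and 375 to 1223 FPKM. Between the solstices, 4 of 7 radial glia markers were higher and 1 lower in summer, 5 of 6 microglia markers were higher, and 3 of 9 endothelial markers were higher and 2 lower. The 1 lower radial glia marker had the symbol sox2 but was described as SOX3 protein (-0.24). The sox2 gene described as SRY-box 2 was not called (0.08). Between spring and autumn, 1 radial glia marker was higher in spring and 4 lower, 1 microglia marker was higher, 1 lower and 4 not called, and 3 endothelial markers were higher and 3 lower. Of 5 pituitary markers, 3 were higher in summer than in winter and 2 not called, while spring against autumn gave 3 higher and 2 lower. The summed level of all 6 listed pituitary markers ran from 746 to 1169 FPKM in spring and 928 to 1827 in summer. It ran from 729 to 1505 FPKM in autumn and 475 to 1102 in winter. The genes cga, fshb and lhb, which encode gonadotropin subunits, were the 3 pituitary markers higher in summer, and lhb was lower in spring than in autumn (-1.98, SE 0.12, adjusted p = 3e-14) while cga and fshb were higher. The part of these cell types in the members' season differences was not tested.

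Few members had a called daily curve, and in spring and winter their share was near that of all genes. A cosine of 24 h period was called for 1 member in spring (2.59% of all genes), 2 in summer (13.6%), 4 in autumn (16.1%), 1 in winter (1.53%) and 1 for the curve averaged over the seasons (13.5%). The median amplitude, from mean to peak on the log2 scale, was 0.11 in spring, 0.07 in summer, 0.08 in autumn and 0.10 in winter over the members, against 0.09, 0.10, 0.11 and 0.09 over all genes. The cosine differed between seasons for 8 members (21.5% of all genes). Sampling every 4 h over 1 cycle cannot tell a daily rhythm from a drift over the sampling.

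The minor subunit 6 gene LOC101166083 had the widest daily range. In summer its libraries were at 11.3 and 15.8 FPKM at hour 6, 23.4 and 26.7 at hour 14 and 28.9 and 31.7 at hour 18. In autumn they were at 14.4 and 16.2 FPKM at hour 10 and at 30.1 and 26.7 at hour 14, while in winter all 12 libraries stayed between 10.9 and 15.8. In summer the libraries of hours 14 and 18 were the 4 highest, and in autumn the highest library was at hour 14. The fitted trough-to-peak fold was 1.96 in summer with a peak at 17.8 h (amplitude 0.49, SE 0.09, adjusted p = 0.000585) and 1.53 in autumn with a peak at 18.4 h (amplitude 0.31, SE 0.09, adjusted p = 0.0421). The autumn call was lost with no filter on low values and with either rescaling, at amplitudes of 0.29 to 0.31. It was also lost when any of 7 single autumn libraries was left out (either library of hours 6, 10 and 14, or hour 22 library 2), at 0.27 to 0.34. Averaged over seasons it was 1.35 (amplitude 0.22, SE 0.05, adjusted p = 0.00253). The curve did not pass the test of a difference between seasons (adjusted p = 0.0546). The major gene LOC101155183 was called in no season.

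The core protein 2 gene LOC101158024 was lowest at hour 14 in autumn, with 16.9 and 15.1 FPKM against 22.8 and 22.5 at hour 2. Its amplitude was 0.20 in autumn with a peak at 1.43 h (SE 0.04, adjusted p = 0.00186) and 0.15 in summer with a peak at 5.63 h (SE 0.04, adjusted p = 0.032). The summer call was lost when any of 4 single libraries was left out (either library of hour 6, hour 14 library 1 or hour 18 library 2), at 0.13 to 0.14. In spring and winter, at 0.01 and 0.06, it was not called, and the curves differed between seasons (adjusted p = 0.0116). The Rieske gene LOC101159190 was highest at hour 14 in autumn, with 56.9 and 52.5 FPKM against 34.6 and 33.5 at hour 6, and at hour 22 in winter, with 49.99 and 49.8 FPKM. Its autumn amplitude was 0.29 with a peak at 15.4 h (SE 0.07, adjusted p = 0.00568), and the curves differed between seasons (adjusted p = 0.00375).

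The 5A gene LOC101170179 was higher at night in autumn, with 117 and 115 FPKM at hour 2 against 83.4 and 91.1 at hour 14 (amplitude 0.20, SE 0.04, peak at 1.13 h, adjusted p = 0.00148). Subunit 7 of complex III (LOC101165157) peaked near midday in winter, with 125 and 103 FPKM at hour 10 and 114 and 105 at hour 14 against 87.0 and 81.9 at hour 2 (amplitude 0.21, SE 0.05, peak at 12.6 h, adjusted p = 0.0347). This call was lost when any of 8 winter libraries was left out, namely either library of hour 2, 10, 14 or 22, at amplitudes of 0.18 to 0.23. Isoform 1 of subunit 4 (LOC101171816) had its highest winter libraries at hours 10 and 14 as well, at 170 and 161 and at 170 and 146 FPKM, but its winter cosine was not called (amplitude 0.16, SE 0.04, adjusted p = 0.0654). Both genes differed in their curves between seasons, with adjusted p of 0.013 and 0.0104. In spring the call of LOC101154763, subunit 6C-1 (amplitude 0.34, SE 0.08, peak at 8.25 h, adjusted p = 0.0377), was lost without the 3 spring libraries that stood apart, where its amplitude was 0.15. It was also lost when any of 5 single spring libraries was left out (hour 6 library 1, either library of hour 10, hour 18 library 1 or hour 22 library 2), at 0.26 to 0.35.

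**Figure D5:**
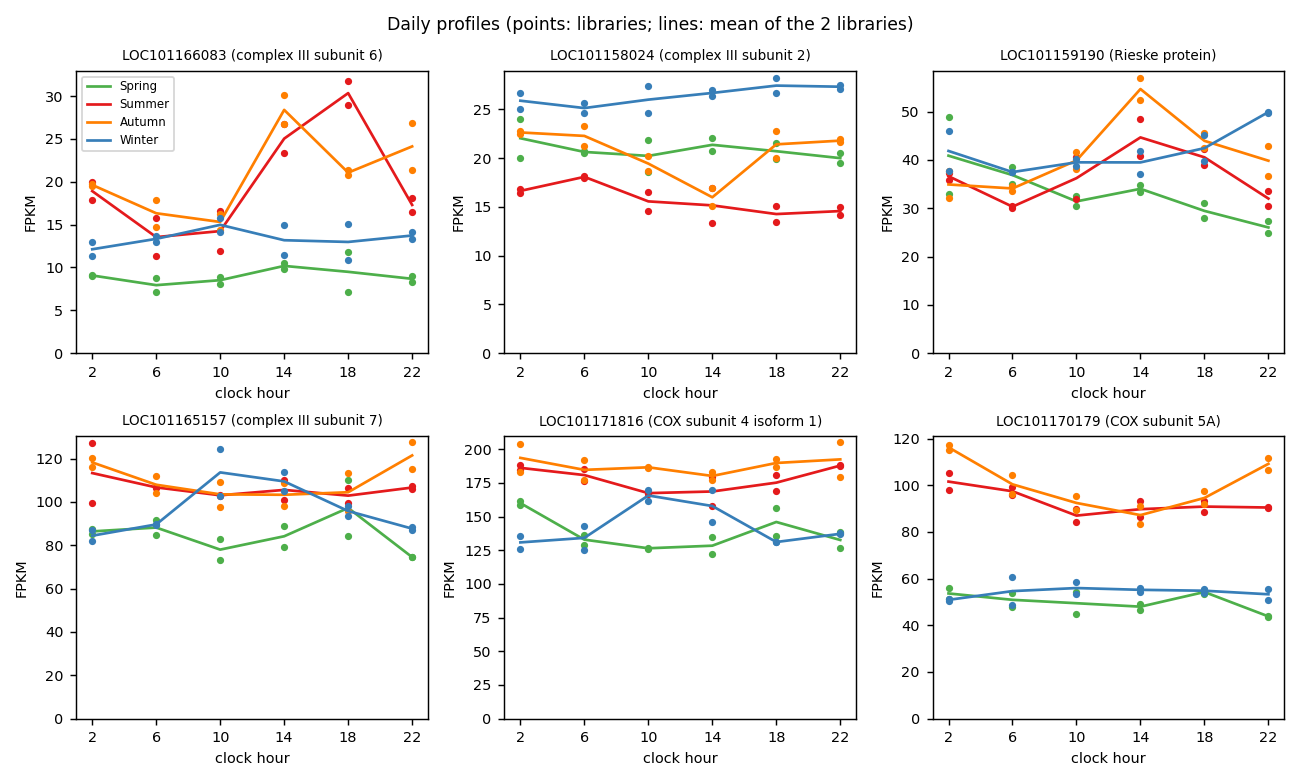
FPKM (vertical axis, from 0) against clock hour (horizontal axis) for 6 members with a called daily cosine or a cosine that differs between seasons; points are single libraries, lines join the means of the 2 libraries of an hour, and colours are seasons. LOC101166083 peaks at hour 18 in summer and hour 14 in autumn and stays between 10.9 and 15.8 FPKM in winter, and LOC101158024 dips at hour 14 in autumn.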

How the data were processed

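RNA sequencing libraries were prepared by poly-A selection with strand-specific chemistry, per the labels' protocols. The authors deposited 1 table of FPKM values for 26167 genes and 48 libraries. The submitters' processing notes name Bowtie2 2.2.5 and RSEM 1.2.12 with no role for either; the genome build is not given in the sources used here. Read counts were not used, so depth is unknown and no counting interval is given. Gene descriptions are those of the deposited table, and IDs were matched to the reference gene table (assembly ASM223467v1, used for names and for which genes neighbour each other), which matched 25080 IDs and all 45 members.

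Genes with a mean of at least 1 FPKM were tested on log2(FPKM + 1), with no further scaling, by limma 3.58.1 with an intensity trend in R 4.3.3. Folds are powers of 2 on this scale and understate changes of low genes. Season differences came from a model of the 24 season-by-hour groups (24 residual degrees of freedom) and daily curves from a 24 h cosine per season (36 residual degrees of freedom). Tests were two-sided, with Benjamini-Hochberg adjustment over all 16622 genes. Both fits were tested on simulated data.

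Values per season were given, within each complex, for the 3 most abundant members, the 4 with the widest season range, LOC101157431 and, by smallest p, up to 6 members whose daily curve was called on average or differed between seasons, and ratios for genes of the same subunit name. The members and gene lists were chosen with earlier results of these data known. Assembly factors were removed from the lists of complexes I and II after their names were read. The libraries of an hour are numbered in accession order, so the numbers pair nothing. Alternatives were a pseudocount of 0.1, no filter, a filter of 5 FPKM, median-ratio scaling, quantile normalization, array weights, a replicate block, the compared seasons alone, and each library left out; leaving out 3 spring libraries was added after seeing the data.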

Additional observations from a re-analysis of the deposited data

Results flagged for a closer look

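In 8 members the daily curve differed between seasons by limma's test of the difference, out of 45 members and against 21.5% of all genes. By increasing adjusted p they were LOC101159190, a Rieske gene of complex III (0.00375), LOC101171816, isoform 1 of cytochrome c oxidase subunit 4 (0.0104), LOC101158024, a core protein 2 gene (0.0116), LOC101165157, subunit 7 of complex III (0.013), atp5f1e, the epsilon subunit of ATP synthase (0.0164), LOC101170179, a 5A gene (0.0274), LOC101154763, subunit 6C-1 (0.0392), and atp5f1b, the beta subunit (0.0494).

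Without the 3 spring libraries that stood apart, 5 of these differences were still called. The other 3 were not: atp5f1b (adjusted p = 0.329), atp5f1e (0.0848) and LOC101154763 (0.285). With the replicate block, whose numbers pair nothing, atp5f1b was not called either (adjusted p = 0.0543). In fits that left out 1 library each, the call was lost in 36 of 48 fits for atp5f1b, in 12 for LOC101154763, in 3 for LOC101170179 and in 1 for atp5f1e, and in 0 for the other 4 genes.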

How the results depend on the processing

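Of 207 called season differences of members, 207 kept their call with a pseudocount of 0.1, 204 with no filter, 199 with median-ratio scaling, 194 with quantile normalization, 206 with array weights, 206 in fits of the compared seasons alone and 203 without the 3 spring libraries. The 1 that turned sign was atp5pd, spring minus autumn, at 0.0027 after quantile normalization. Array weights were equal for both libraries of a season and hour, as at spring hour 18 (0.509), so they could not mark down a single library. Leaving out 1 library at a time kept at least 203, with 10 differences losing their call at least once. The numbers only name libraries, so the replicate block models no known pairing, and calls kept or lost under it test none. With the block, summer against winter gave 27 members higher and 8 lower, and every call of a season difference or of a daily curve within seasons was kept. It added autumn minus winter for LOC101160874 (0.08, adjusted p = 0.0485), which made 36 members higher in autumn, and ended the difference between seasons for atp5f1b (adjusted p = 0.0543), which left 7 such members.

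Counts of few members moved most. Members higher in spring than in autumn (2) numbered 1 with no filter, with array weights or without the 3 spring libraries, and 4 with either scaling (1 to 2 with a library left out). Those higher in summer than in autumn (0) numbered 1 without the 3 spring libraries (0 to 1). Those higher in spring than in winter (0) numbered 2 with either scaling (0 to 2). Those higher in spring than in summer (3) numbered 6 with median ratios, 8 with quantiles and 5 without the 3 spring libraries. Daily curves in spring (1) numbered 0 with no filter, with array weights or without the 3 spring libraries, and 2 with quantiles (0 to 4); in summer (2) 4 with array weights (1 to 4); in winter (1) 4 with array weights and 2 without the 3 spring libraries (0 to 2); averaged (1) 2 with a filter of 5 FPKM, with either scaling or without the 3 spring libraries (1 to 2); and differing between seasons (8) 5 without the 3 spring libraries (6 to 13, the highest without summer hour 22 library 1). The cause of these moves was not tested. Over all genes, the spring against autumn counts of 4542 higher and 7496 lower became 5760 and 6051 with median ratios. Depth per library is unknown, and the least abundant member, LOC101157431, rests on the fewest fragments per unit length.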
